A study of Mus musculus with 12 samples.

Results

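The genes described here encode the proteins that mark DNA replication origins, start them and copy DNA at the fork. They are 45 genes named as a list by their symbols, and all 45 stood in the deposited table of 55291 genes and passed the filter on low counts. Sorted by role, 15 act in origin licensing (Orc1 to Orc6, Cdc6, Cdt1, Gmnn and Mcm2 to Mcm7). Origin firing has 8 (Mcm10, Cdc45, Gins1 to Gins4, Dbf4 and Cdc7). The fork has 22: the subunits of DNA polymerases alpha and epsilon, Pold1 to Pold3 of polymerase delta, Pcna, Rfc1 to Rfc5, Rpa1 to Rpa3, Fen1 and Lig1. Pold4, a further subunit of polymerase delta, was placed among other replication genes outside the 45. The libraries came from mouse embryos at 2 stages, labelled L2C (2-cell embryos) and PN3 (zygotes), made by Smart-seq2, a low-input method that primes RNA at its poly(A) tail. At each stage KO embryos, which had the maternal Pan2 gene deleted, were set against WT embryos, with 3 libraries in each of the 4 groups, KO L2C, WT L2C, KO PN3 and WT PN3. Pan2 encodes the nuclease subunit of a deadenylase, an enzyme that trims poly(A) tails. The labels name no Cre driver, deleted exon, strain, age or number of pooled embryos, and they do not state the genotype of the father, so an intact paternal copy may be present. The extraction text speaks of oocytes where the design text speaks of zygotes.

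As background, origins are licensed when the origin recognition complex (ORC) and CDC6, with CDT1, load the ring-shaped MCM2-7 helicase onto DNA, and geminin, the product of Gmnn, holds CDT1 in check so that loading happens once per cycle. Firing turns the loaded ring into the active CMG helicase by adding CDC45 and the GINS complex, after phosphorylation by the kinase CDC7 with its activator DBF4 and with the help of MCM10. At the fork, polymerase alpha-primase lays down primers, polymerase epsilon extends the leading strand and polymerase delta the lagging strand. RPA coats single-stranded DNA, RFC loads the PCNA clamp, and FEN1 and LIG1 process and seal Okazaki fragments. Mouse zygotes start with mRNA and protein stored in the egg, and most transcription from the embryo's own genome starts at the 2-cell stage.

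Levels are given as CPM, a gene's counts per 1e+06 counts of the library after scaling between libraries, and a gene was called when its Benjamini-Hochberg adjusted p over all 21160 genes tested was under 0.05 in edgeR's quasi-likelihood test. Total counts ranged from 14453592 to 28624766 per library, so that 3 counts equalled 0.109 to 0.171 CPM. Pan2 averaged 22.5 ± 10.4 CPM in KO L2C, 63.8 ± 4.72 CPM in WT L2C, 4.26 ± 2.56 CPM in KO PN3 and 174 ± 14.6 CPM in WT PN3 (SD, n = 3 each). Of 8 oocyte and zygote markers all were detected at both stages, and their summed level was 1894 to 3088 CPM in KO L2C, 1293 to 1636 CPM in WT L2C, 11915 to 21727 CPM in KO PN3 and 12243 to 16850 CPM in WT PN3. Of 7 markers of 2-cell embryos 6 were in the table, and their sum was 207 to 661 CPM in KO L2C, 656 to 1518 CPM in WT L2C, 19.2 to 40.0 CPM in KO PN3 and 17.6 to 30.8 CPM in WT PN3. The sums over granulosa or cumulus markers, sperm markers and markers of oviduct, stroma or blood stayed at or below 94.7 CPM in all libraries. The granulosa genes Inha and Fshr were at 0 in every L2C library and Amh at 0 in every PN3 library. Others were detected, with Cyp19a1 at 27.1 to 42.6 CPM in KO PN3 and 19.5 to 33.3 CPM in WT PN3. Tnfaip6 stood at 3.71 to 10.7 CPM in KO L2C and 8.33 to 11.5 CPM in WT L2C. The highest sums, those of oviduct, stroma or blood at L2C, came mostly from the haemoglobin gene Hba-a1. It averaged 53.7 ± 9.42 CPM in KO L2C and 71.1 ± 14.1 CPM in WT L2C (SD, n = 3), and stood at 0 to 0.112 CPM at PN3. The other blood genes of the list did not share this level. Hbb-bs, also a haemoglobin gene, was at 0 except for 0.103 CPM in WT L2C replicate 3, and Ptprc stayed at or below 1.14 CPM. The source of the Hba-a1 reads was not tested. One library in each group held more ribosomal RNA than the others: a gene annotated as rRNA took 34.0% of the counts of KO L2C replicate 3, 24% of WT L2C replicate 3, 32.2% of KO PN3 replicate 2 and 34.9% of WT PN3 replicate 2, against 12.7 to 13.9% in the other L2C libraries and 4.35 to 5.63% in the other PN3 libraries. The stroma marker Col1a1 had 15.3 CPM in KO PN3 replicate 2 and 10.8 CPM in WT PN3 replicate 2, against 0 to 0.190 CPM in the other PN3 libraries. It had 0.114, 0.323 and 9.27 CPM in KO L2C and 2.31, 1.53 and 0.413 CPM in WT L2C. Vim, from the same list, had 17.4 and 12.9 CPM in those PN3 libraries, against 0 to 0.437 CPM in the other PN3 libraries. At L2C Vim ranged from 10.3 to 13.8 CPM in KO and from 4.13 to 6.06 CPM in WT. Replicates 1 and 2 of each L2C group stood much closer to each other than other replicates did (chi-square per gene of 3.59 in KO and 3.33 in WT, against 16.2 to 627 for the other pairs of a group), though they differed by more than counting noise. The labels do not say whether replicates came from separate pools of embryos, so the p-values speak of the spread among these 12 libraries, which may be technical.

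Per kilobase of exon, the most abundant of the 45 transcripts were those of small regulators and accessory subunits. Geminin (Gmnn) stood at 182 CPM per kb in KO L2C, 281 CPM per kb in WT L2C, 318 CPM per kb in KO PN3 and 260.2 CPM per kb in WT PN3. Pole4, a histone-fold subunit of polymerase epsilon, stood at 135 CPM per kb in KO L2C, 165 in WT L2C, 258 in KO PN3 and 272 in WT PN3. Orc6, the smallest ORC subunit, stood at 162 CPM per kb in KO L2C, 142 in WT L2C, 289.6 in KO PN3 and 249.6 in WT PN3. The catalytic subunits of the leading- and lagging-strand polymerases lay at the low end. Pole stood at 1.09 CPM per kb in KO L2C, 2.82 in WT L2C, 0.645 in KO PN3 and 0.401 in WT PN3, and Pold1 at 0.897 CPM per kb in KO L2C, 0.509 in WT L2C, 0.649 in KO PN3 and 0.271 in WT PN3. Transcripts of one complex were therefore spread widely. In WT L2C the ORC subunits ran between 1.27 CPM per kb for Orc3 and 142 CPM per kb for Orc6, while the MCM2-7 subunits stayed between 6.07 CPM per kb for Mcm5 and 27.9 CPM per kb for Mcm6. The clamp Pcna stood at 26.7 CPM per kb in KO L2C, 50.1 in WT L2C, 63.6 in KO PN3 and 68.1 in WT PN3, above each of the 5 subunits of its loader RFC in all 4 groups. Fen1, the flap nuclease of Okazaki fragments, had 1.60, 1.89 and 0.551 CPM in KO L2C and 2.46, 1.94 and 1.34 CPM in WT L2C, and 84.2% of its exon bases are overlapped by exons of Gm10143 and Tmem258 on the opposite strand, so its reads cannot be told apart from theirs. The plot of subunit levels by complex shows these spreads.

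**Figure D1:**
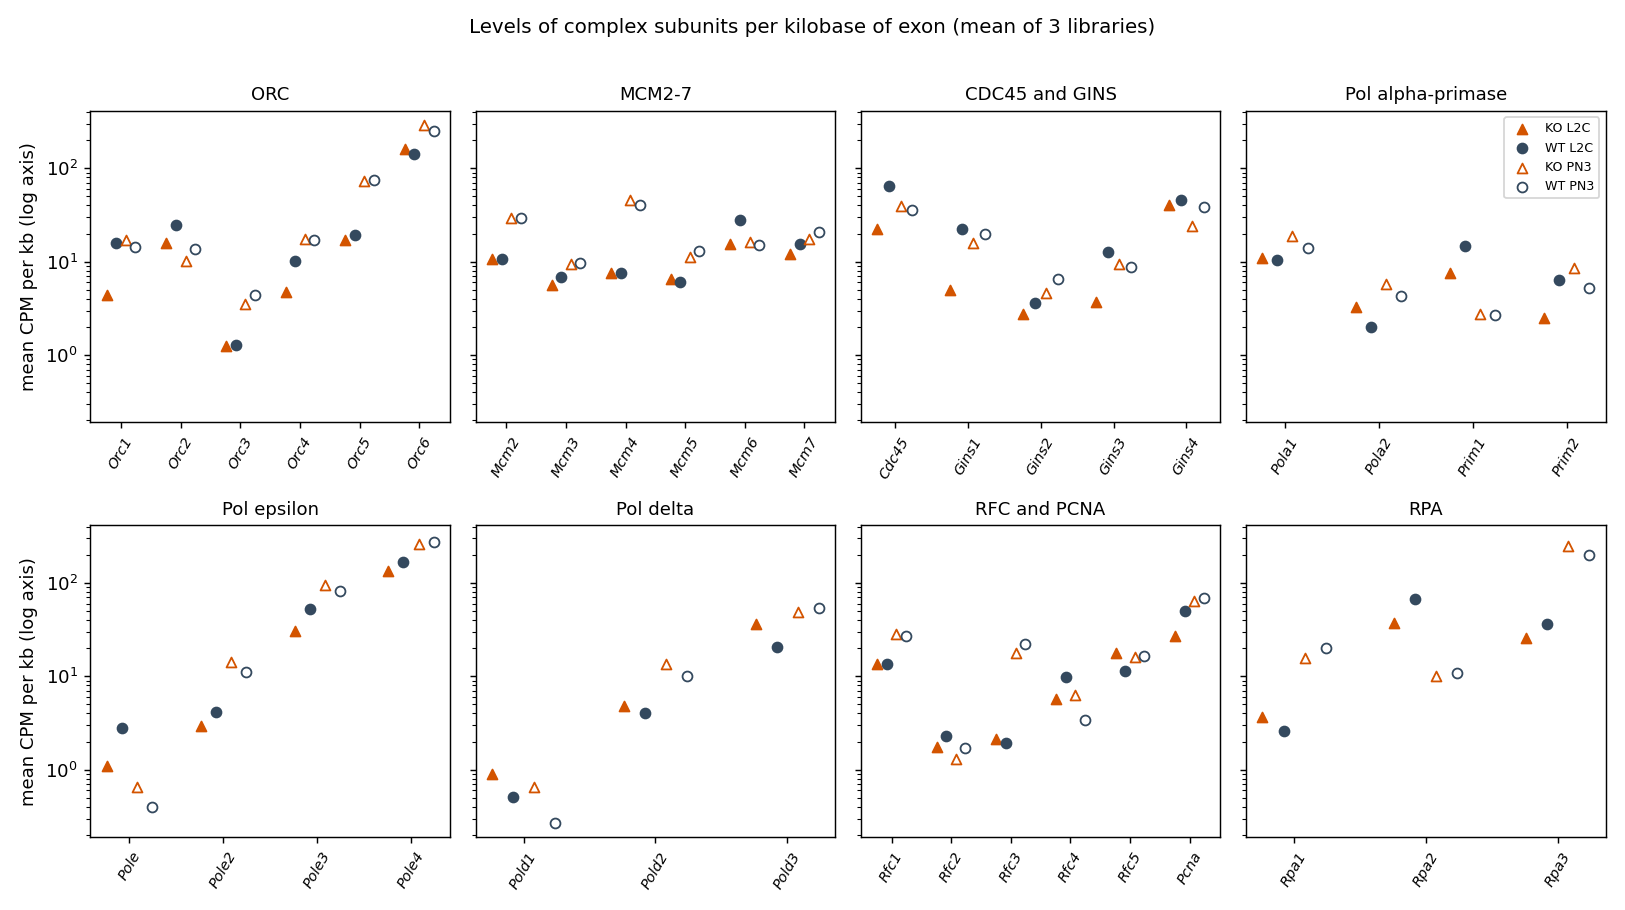
Mean level of each subunit in CPM per kilobase of exon (vertical log axis), by complex, with filled symbols for L2C, open symbols for PN3, triangles for KO and circles for WT (mean of 3 libraries). Subunits of ORC and polymerase epsilon spread over a wide range in each group, while those of MCM2-7 lie closer together; in WT L2C Pole stood at 2.82 and Pole4 at 165 CPM per kb.

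The libraries rich in ribosomal RNA spread more from their group than the others did, counted over all genes. In PN3 replicate 2, 9 of 45 members in KO and 6 of 45 in WT lay more than 2-fold below the mean of the other replicates, against 16.7% (KO) and 15.2% (WT) of all genes tested, and 2 of 45 in each lay more than 2-fold above, against 16.2% (KO) and 13.4% (WT). Pole2, a non-catalytic subunit of polymerase epsilon, was one such gene, with 54.8, 6.56 and 60.1 CPM in the KO PN3 libraries and 46.6, 6.82 and 43.4 CPM in the WT PN3 libraries. Orc6 had 909, 277 and 959 CPM in KO PN3 and 711, 304 and 834 CPM in WT PN3, and Pcna had 194, 61.9 and 202 CPM in KO PN3 and 213, 70.1 and 208 CPM in WT PN3. The dip fell in the same replicate number in both genotypes for these genes. In L2C replicate 3, 4 of 45 members in KO and 4 of 45 in WT lay more than 2-fold below the mean of the other replicates, against 21.4% (KO) and 13.6% (WT) of all genes tested, and 1 in KO and 0 in WT lay as far above, against 15.8% (KO) and 10.1% (WT). Orc5, an ORC subunit, had 141, 132 and 40.3 CPM in KO L2C and 140.0, 137 and 76.0 CPM in WT L2C. The heat map of all libraries shows both sets of libraries. Calls made without them are given below for the comparisons of KO with WT, and calls gained between the stages are given near the end.

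**Figure D2:**
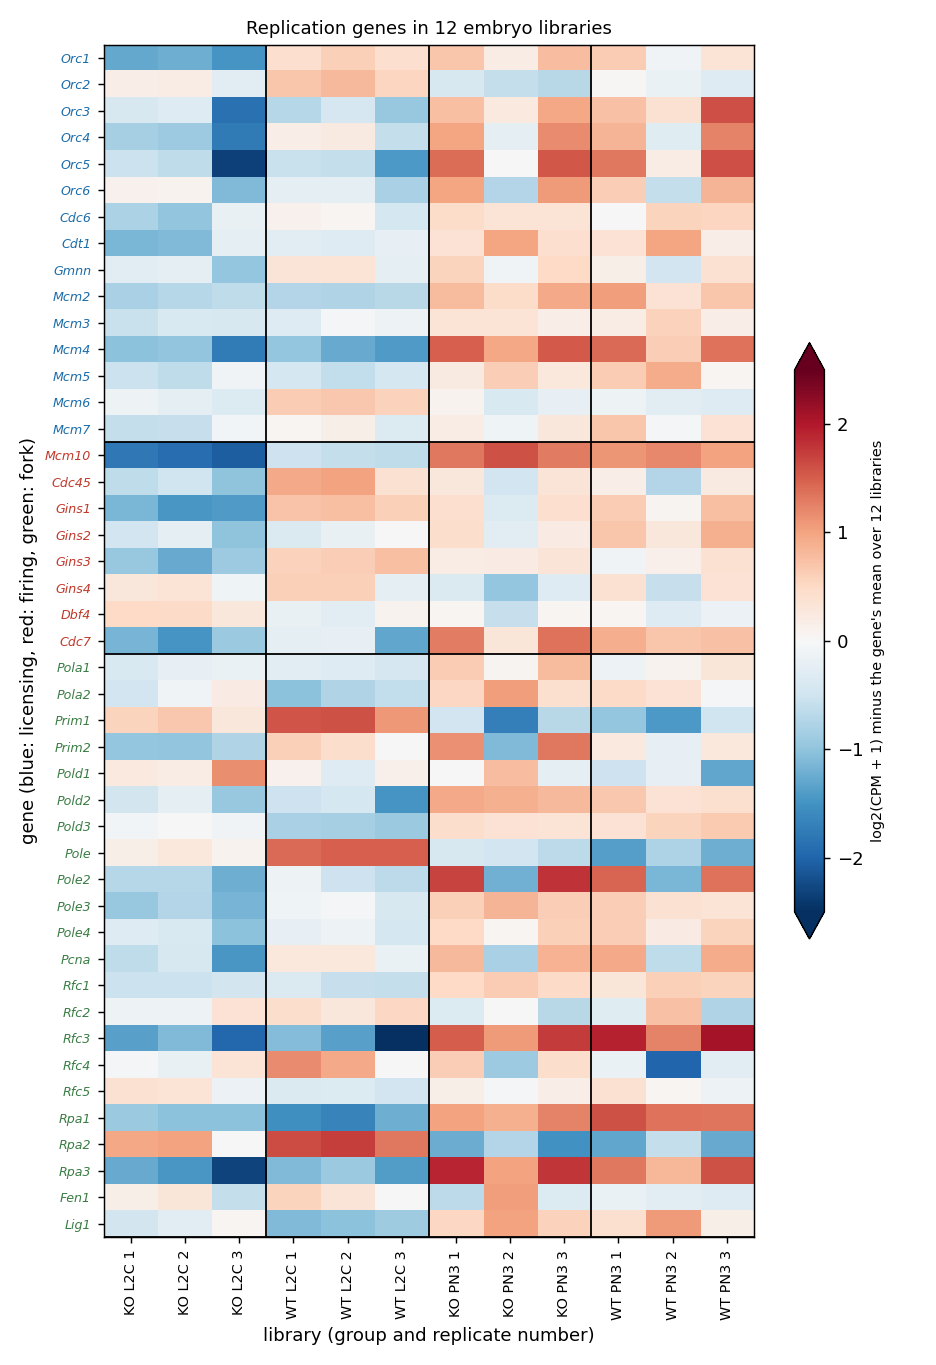
Heat map of the 45 genes (rows, coloured by role) in the 12 libraries (columns, by group and replicate number), as log2(CPM + 1) minus the mean of the gene over the 12 libraries, so that red is above and blue below that mean. Most licensing rows are bluer at L2C than at PN3, while Prim1, Pole and Rpa2 are red at L2C; KO PN3 replicate 2, WT PN3 replicate 2, KO L2C replicate 3 and WT L2C replicate 3 stand apart in rows such as Pole2 and Orc5.

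The comparison of KO with WT 2-cell embryos asked which replication transcripts differed after maternal Pan2 loss once the embryo transcribes its own genome. Transcripts of 4 of the 8 origin firing factors were lower in KO: Gins1, Gins3, Cdc45 and Mcm10 each fell by more than 1 on the log2 scale. Orc1, the ORC subunit that with CDC6 closes the complex on DNA, fell by 1.86, and Pole, the catalytic subunit of polymerase epsilon, fell by 1.38. Pold3, an accessory subunit of polymerase delta, was the 1 member called higher in KO. Of the 45 members 10 were called, 1 higher and 9 lower in KO, beside 17% of all genes tested (7.24% higher and 9.74% lower). Lower calls made up 20% of the members and higher calls 2.22%, and 20 of 45 members had an unadjusted p under 0.05. In 16 members all KO libraries lay below all WT libraries and in 7 they all lay above, while 24.5% and 19.1% of all genes tested did so. In bulk samples fewer cells of a kind and less RNA per cell cannot be told apart, and since tails were primed, a lower level can be fewer molecules or fewer with a tail that can be primed.

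By role, 3 of 15 licensing genes were lower (20%) and 0 higher, 4 of 8 firing genes were lower (50%) and 0 higher, and 2 of 22 fork genes were lower (9.09%) and 1 higher (4.55%). The share of fork genes called lower was thus near the 9.74% of all genes, and that of firing genes the farthest from it. Median log2 fold changes were -0.36 for licensing, -1.04 for firing and -0.34 for fork genes, against 0.016 for all genes tested. Licensing and fork genes had close medians, and no test was made between the roles, whose members were chosen with earlier results of these data known. At L2C the summed oocyte and zygote markers were higher in every KO library than in every WT library and the summed 2-cell markers overlapped narrowly (values above). The first sum was carried by Bmp15, which averaged 1858 ± 611 CPM in KO L2C and 880.3 ± 169 CPM in WT L2C (SD, n = 3). Its list was split, with Zar1, H1f8 and Ooep called higher and Zp3 called lower in KO (-1.33, edgeR adjusted p = 0.00122). Of the 2-cell markers Usp17lb (-2.16) and Tcstv3 (-1.27) were called lower in KO (edgeR adjusted p = 0.0165 and 0.0167). Zscan4c (-1.01), Zscan4d (-1.02), Zfp352 (-0.54) and Usp17la (0.16) were not called. The part of either marker list in the differences of the replication genes was not tested.

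Among the licensing genes Orc1 (chr4:108579423-108614833, mm10) had 15.6, 16.4 and 13.6 CPM in the KO L2C libraries, against 52.9, 59.8 and 53.2 CPM in the WT L2C libraries. All KO libraries lay below all WT libraries by a wide gap. The log2 fold change was -1.86 (SE 0.25, edgeR adjusted p = 0.000862), and 10.8% of its exon bases are shared with a gene on the other strand. Mcm6 (chr1:128331590-128359664), a subunit of the helicase ring, had 76.9, 71.0 and 66.1 CPM in KO L2C, against 131, 135 and 126 CPM in WT L2C. The groups did not overlap, and Mcm6 differed by -0.87 on the log2 scale (SE 0.19, edgeR adjusted p = 0.0081). Orc2 (chr1:58462771-58505109), an ORC subunit, had 66.0, 67.6 and 49.0 CPM in KO L2C, against 96.6, 105 and 86.2 CPM in WT L2C. Its KO libraries all lay below its WT libraries, with an adjusted p near the threshold (log2 fold change -0.65, SE 0.20, edgeR adjusted p = 0.0426) and 29.8% of its exon bases overlap a gene on the opposite strand.

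The other 12 licensing genes were not called. Mcm2, a subunit of the same ring as Mcm6, had 69.5, 74.7 and 78.6 CPM in KO L2C, against 73.6, 72.4 and 75.6 CPM in WT L2C. The groups overlapped and the log2 fold change of 0.01 had a 95% interval of -0.44 to 0.46 (edgeR adjusted p = 0.986), the highest p of the licensing genes. The remaining ring subunits had log2 fold changes of -0.30 for Mcm3, -0.02 for Mcm4, 0.10 for Mcm5 and -0.36 for Mcm7, with edgeR adjusted p of 0.339 or more. Within the ring Mcm6 was therefore the 1 subunit called. The loaders Cdc6 and Cdt1 averaged 27.4 ± 8.60 and 57.6 ± 22.1 CPM in KO L2C, against 40.2 ± 7.91 and 82.3 ± 3.68 CPM in WT L2C (SD, n = 3), with edgeR adjusted p of 0.169 and 0.259. Gmnn, the inhibitor of Cdt1, averaged 266 ± 70.2 CPM in KO L2C and 412 ± 86.5 CPM in WT L2C (SD, n = 3; edgeR adjusted p = 0.158). Orc4 had 42.6, 40.4 and 21.7 CPM in KO L2C and 85.9, 90.1 and 50.3 CPM in WT L2C, with no overlap and an edgeR adjusted p of 0.102. Orc3, Orc5 and Orc6 had log2 fold changes of -0.05, -0.17 and 0.20. The interval of Orc5 was wide, at -1.26 to 0.93.

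Among the firing genes the largest difference was that of Gins1 (chr2:150905400-150931280), a subunit of the GINS ring that joins the helicase. Gins1 had 8.74, 6.90 and 7.02 CPM in KO L2C, against 34.0, 35.2 and 31.5 CPM in WT L2C. The highest KO library stood far below the lowest WT library, and the log2 fold change was -2.15 (SE 0.29, edgeR adjusted p = 0.000903). Gins3 (chr8:95633453-95645060), from the same complex, had 10.7, 8.35 and 11 CPM in KO L2C, against 32.4, 33.6 and 36.6 CPM in WT L2C. The groups were again apart (-1.77, SE 0.23, edgeR adjusted p = 0.00076). Cdc45 (chr16:18780447-18811987), a component of the active helicase beside GINS and the MCM ring, had 83.0, 91.0 and 63.7 CPM in KO L2C, against 248, 260.2 and 167 CPM in WT L2C. WT replicate 3 lay below the other WT libraries but above all KO libraries, and the log2 fold change was -1.51 (SE 0.31, edgeR adjusted p = 0.00665). Mcm10 (chr2:4989714-5012791), which helps the helicase to start, had 20.8, 19.1 and 17.0 CPM in KO L2C, against 51.4, 48.4 and 47.6 CPM in WT L2C. Its replicates lay close together in both groups, which did not overlap (-1.37, SE 0.18, edgeR adjusted p = 0.000838).

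The remaining GINS subunits did not pass. Gins4 had 57.7, 60.2 and 43.7 CPM in KO L2C and 71.8, 71.5 and 40.5 CPM in WT L2C. These overlapped, with a log2 fold change of -0.19 and a 95% interval of -0.87 to 0.50 (edgeR adjusted p = 0.728). Gins2, of whose exon bases 67.3% overlap a gene on the other strand, averaged 11.2 ± 3.21 CPM in KO L2C and 14.8 ± 1.99 CPM in WT L2C (SD, n = 3; edgeR adjusted p = 0.397). The kinase genes had opposite signs: Cdc7 averaged 11.2 ± 2.32 CPM in KO L2C and 18.5 ± 7.14 CPM in WT L2C, while Dbf4 averaged 498 ± 39.9 CPM in KO L2C and 343 ± 44.8 CPM in WT L2C (SD, n = 3). Neither was called (edgeR adjusted p = 0.178 and 0.102), although all KO libraries of Dbf4 lay above all WT libraries.

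At the fork Pole (chr5:110286306-110337474) had 11.9, 13.0 and 11.5 CPM in KO L2C, against 30.2, 32.2 and 32.1 CPM in WT L2C. The WT libraries lay close together and well above all KO libraries, and the log2 fold change was -1.38 (SE 0.26, edgeR adjusted p = 0.00464). Pole3 (chr4:62522649-62525068), a histone-fold subunit of the same polymerase, had 61.4, 71.6 and 52.9 CPM in KO L2C, against 112, 117 and 90.3 CPM in WT L2C. Its groups did not overlap either (-0.78, SE 0.19, edgeR adjusted p = 0.0175). Pold3 (chr7:100082111-100121565) had 166, 173 and 162 CPM in KO L2C, against 98.4, 97.4 and 90.7 CPM in WT L2C. It was higher in every KO library than in every WT library (0.81, SE 0.17, edgeR adjusted p = 0.00656). Pole2 and Pole4, the other subunits of polymerase epsilon, had log2 fold changes of -0.50 and -0.30 (edgeR adjusted p = 0.67 and 0.423). Pold1 and Pold2, the catalytic subunit of polymerase delta and its partner, had 0.82 and 0.25 (edgeR adjusted p = 0.376 and 0.65), and Pold1 stood at 3.14, 3.02 and 6.92 CPM in KO L2C and 2.77, 1.80 and 2.84 CPM in WT L2C.

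No member of primase, polymerase alpha or the single-strand binder RPA was called. Prim1, the catalytic subunit of primase, had 30.5, 33.1 and 24.9 CPM in KO L2C, against 62.7, 63.1 and 44 CPM in WT L2C. Prim2, its large subunit, had 14.3, 13.9 and 16.7 CPM in KO L2C, against 44, 39.3 and 28.7 CPM in WT L2C. Both were lower in KO without overlap, with edgeR adjusted p of 0.0852 and 0.0698. Pola2, the regulatory subunit of polymerase alpha, averaged 27.3 ± 6.51 CPM in KO L2C and 16.4 ± 2.46 CPM in WT L2C, while its catalytic partner Pola1 averaged 96.6 ± 7.69 CPM in KO L2C and 90.9 ± 4.55 CPM in WT L2C (SD, n = 3). Rpa2 averaged 111 ± 38.5 CPM in KO L2C and 201 ± 28.7 CPM in WT L2C, Rpa1 20.3 ± 0.845 CPM in KO L2C and 14.3 ± 2.54 CPM in WT L2C (SD, n = 3). Their edgeR adjusted p were 0.0801 for Pola2, 0.0759 for Rpa2 and 0.103 for Rpa1. The clamp Pcna had 70.0, 83.0 and 39.5 CPM in KO L2C and 132, 131 and 96.9 CPM in WT L2C (log2 fold change -0.91, 95% interval -1.92 to 0.11). Rfc1, the large subunit of its loader, had 80.0, 80.1 and 84.8 CPM in KO L2C and 91.2, 77.4 and 76.9 CPM in WT L2C. They overlapped with the highest adjusted p of the fork genes (edgeR, 0.994), and the 95% interval of the log2 fold change was -0.38 to 0.37. Lig1, the ligase of Okazaki fragments, averaged 18.3 ± 3.53 CPM in KO L2C and 10.2 ± 0.904 CPM in WT L2C, and Rfc5 82.2 ± 16.0 CPM in KO L2C and 53.6 ± 2.94 CPM in WT L2C (SD, n = 3), both higher in all KO libraries and short of the threshold (edgeR adjusted p = 0.0606 and 0.0613).

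**Figure D3:**
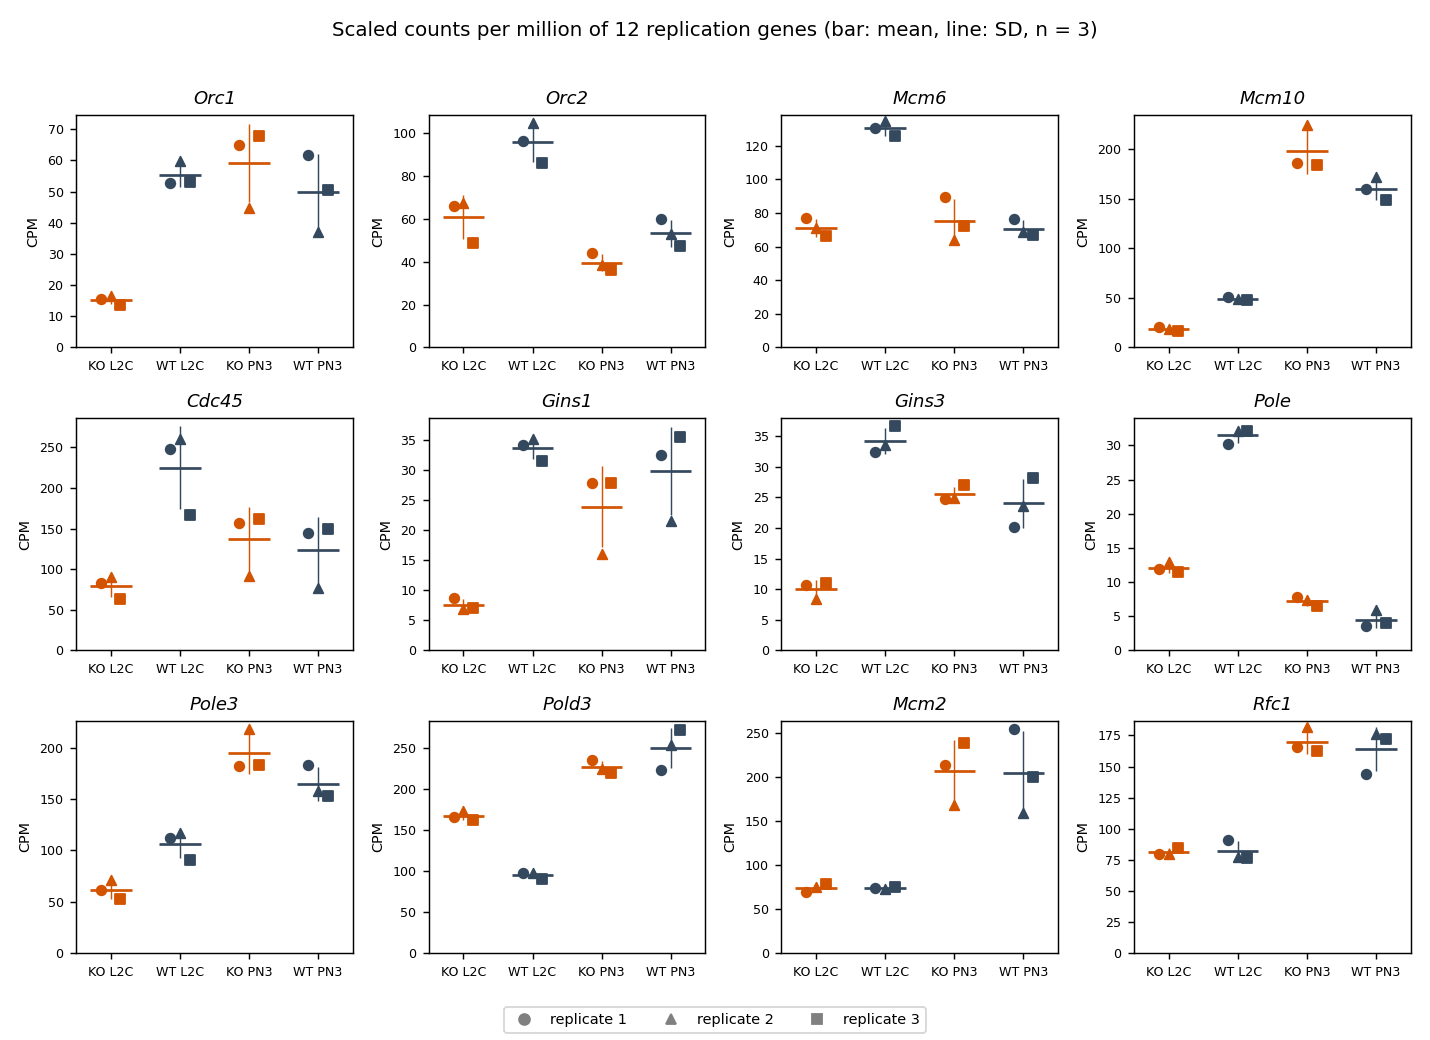
CPM (vertical axis, from 0) of 12 genes in each library of KO L2C, WT L2C, KO PN3 and WT PN3; circles, triangles and squares mark replicates 1, 2 and 3, bars the mean and lines the SD (n = 3). The 9 genes called lower in KO at L2C have all 3 KO L2C points below the WT L2C points, Pold3 has them above, and Mcm2 and Rfc1 have overlapping points.

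The calls at L2C differed in how much they rested on single libraries. Orc1, Mcm10, Cdc45, Gins1, Gins3, Pole and Pold3 were called in all 6 fits that left out 1 L2C library. Mcm6 lost its call without KO L2C replicate 2 or WT L2C replicate 2 (highest edgeR adjusted p = 0.0542), Pole3 without KO L2C replicate 1 or WT L2C replicate 1 or 2 (0.0902) and Orc2 without any one of the 6 (0.172). With the replicate number as a block 23 members were called, 6 higher and 17 lower, including the 10 above, while 32.2% of all genes were called. The added genes were Dbf4, Pola2, Rfc5, Rpa1 and Lig1, higher in KO, and Orc4, Cdt1, Gmnn, Prim1, Prim2, Pcna, Rpa2 and Rpa3, lower in KO. Without the 4 libraries rich in rRNA 27 were called, 7 higher and 20 lower, while 45.2% of all genes were called, in a fit that keeps only the close pairs of libraries at L2C. Leaving out KO PN3 replicate 2 gave 16 (4 higher, 12 lower), with 19.5% of all genes called. With replicates 1 and 2 of each L2C group summed 4 were left, Orc1, Mcm10, Gins1 and Gins3, with 1.55% of all genes called. Upper quartile scaling moved the median of all genes to 0.226 and gave 6 higher and 7 lower calls, with 18% of all genes called.

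**Figure D4:**
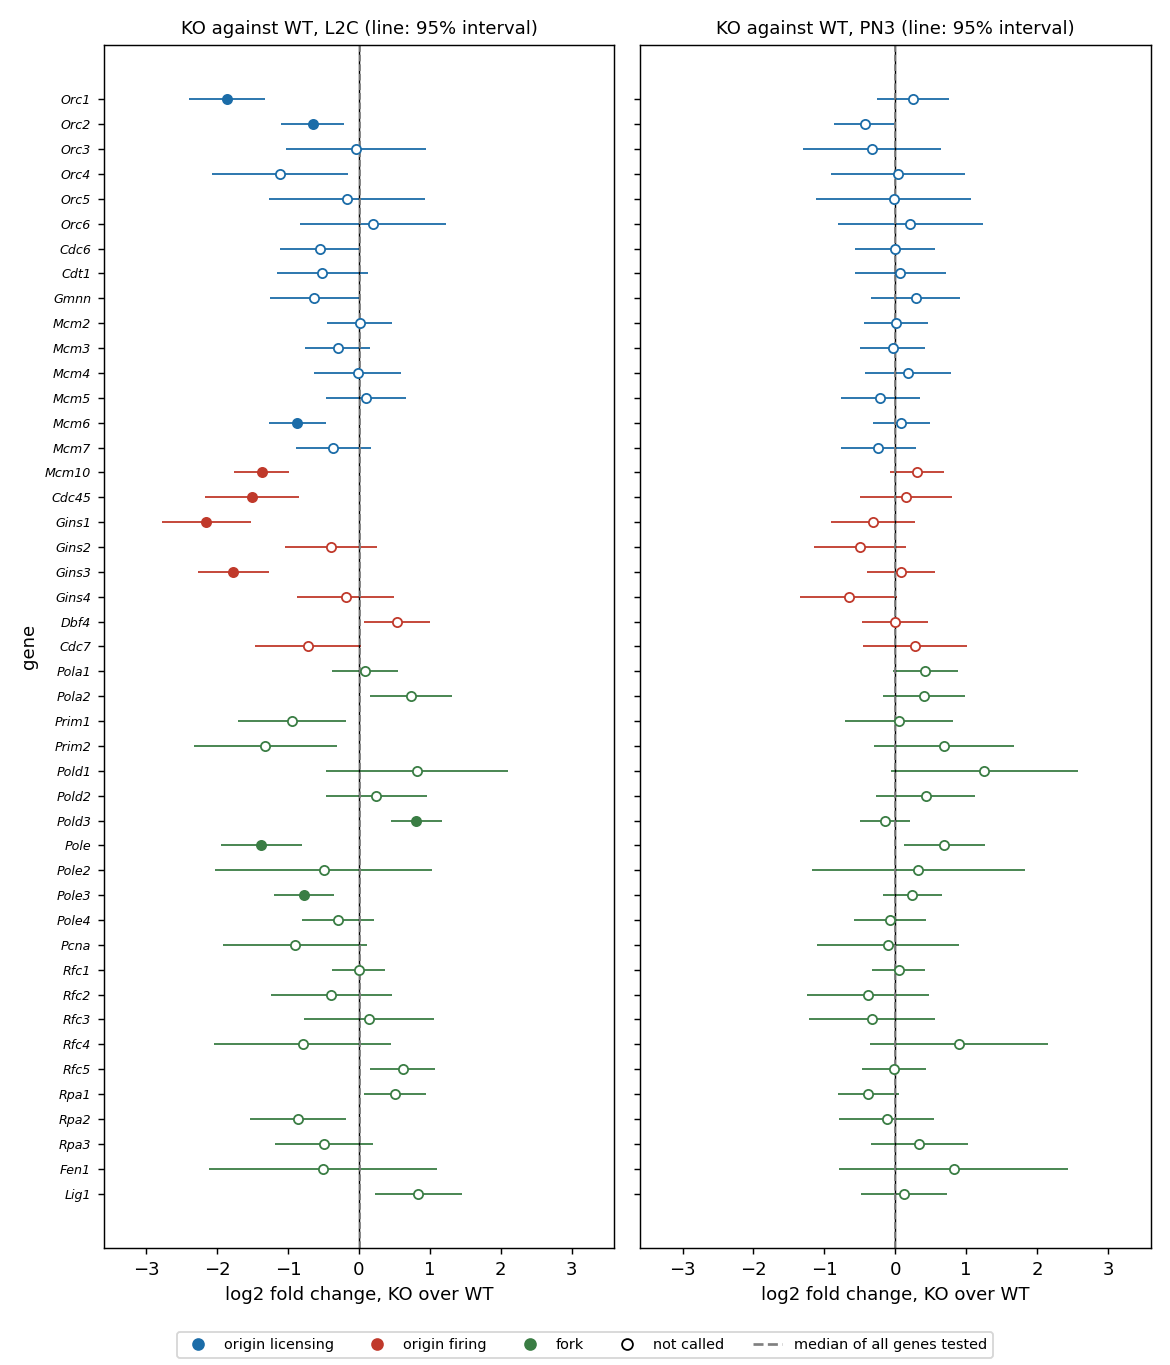
Log2 fold change of KO over WT (horizontal axis) with its 95% interval for the 45 genes, at L2C on the left and at PN3 on the right; colours give the role, filled points the genes called, and the dashed line the median of all genes tested. At L2C 4 of 8 firing genes are filled and to the left of 0, with Gins1 at -2.15; at PN3 no point is filled.

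For the promoters, windows that run from 250 bases before to 50 bases past the annotated start were matched by symbol for 37 of the 45 genes (RefSeq, GRCm38.p6). E2F factors are regulators known to drive many S phase genes, and their sites were searched as TTTCCCGC, TTTCGCGC, TTTGCCGC or TTTGGCGC on both strands. Such a word stood in the windows of 16 of 37 members (43.2%), against 2.6% of all genes with a window and 4.04% of the genes tested here. It stood in 8 of 13 licensing genes (61.5%), 1 of 5 firing genes (20.0%) and 7 of 19 fork genes (36.8%). Of the genes called lower in KO at L2C that had a window, 3 of 7 held one (42.9%), and of the members not called 12 of 29 (41.4%). The word CCAAT, on both strands, stood in 56.8% of members, 41.1% of all genes with a window and 42.8% of the genes tested here. CCGGAAG, the core of ETS sites, stood in 40.5%, 9.93% and 16.3% of these. In the same split CCAAT stood in 6 of 7 (85.7%) of the genes lower in KO and in 15 of 29 (51.7%) of those not called, and CCGGAAG in 3 of 7 (42.9%) and 11 of 29 (37.9%), with no test made. A match describes letters in this window and shows no binding. The windows are shown for the 4 genes called at L2C that held an E2F word, 3 lower and 1 higher in KO, read 5′ to 3′ on the strand of the gene, with the E2F words or their reverse complements in capitals.
Orc1 (chr4:108579204-108579503, plus strand): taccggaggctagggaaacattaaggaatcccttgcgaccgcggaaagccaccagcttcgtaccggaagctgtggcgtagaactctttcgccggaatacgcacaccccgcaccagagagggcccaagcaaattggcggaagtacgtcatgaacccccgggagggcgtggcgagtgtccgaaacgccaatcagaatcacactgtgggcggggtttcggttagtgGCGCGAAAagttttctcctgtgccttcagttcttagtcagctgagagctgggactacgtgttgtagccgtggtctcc
Mcm6 (chr1:128359656-128359955, minus strand): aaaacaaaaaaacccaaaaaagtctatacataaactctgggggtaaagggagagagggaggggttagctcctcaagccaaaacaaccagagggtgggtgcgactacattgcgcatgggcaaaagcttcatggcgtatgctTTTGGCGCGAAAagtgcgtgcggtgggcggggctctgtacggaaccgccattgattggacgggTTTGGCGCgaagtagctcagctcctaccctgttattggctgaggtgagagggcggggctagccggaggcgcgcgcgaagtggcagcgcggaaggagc
Gins3 (chr8:95633309-95633608, plus strand): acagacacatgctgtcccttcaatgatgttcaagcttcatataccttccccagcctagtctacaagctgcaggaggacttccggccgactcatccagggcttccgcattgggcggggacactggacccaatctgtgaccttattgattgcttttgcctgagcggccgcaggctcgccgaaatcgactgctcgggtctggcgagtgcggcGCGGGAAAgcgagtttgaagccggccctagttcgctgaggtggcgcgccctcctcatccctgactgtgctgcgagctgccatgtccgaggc
Pold3 (chr7:100121453-100121752, minus strand): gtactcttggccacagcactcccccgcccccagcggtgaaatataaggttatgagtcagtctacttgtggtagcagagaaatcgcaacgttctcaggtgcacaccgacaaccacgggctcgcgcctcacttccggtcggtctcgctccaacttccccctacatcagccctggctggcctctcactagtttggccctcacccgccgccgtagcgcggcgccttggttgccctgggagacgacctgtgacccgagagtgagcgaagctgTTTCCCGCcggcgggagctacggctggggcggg
In Orc1 the word lies at -27 to -20 from the start (base 0), in Gins3 at -41 to -34 and in Pold3 at 17 to 24, past the start. Mcm6 holds words at -110 to -103, -106 to -99 and -47 to -40, the first 2 of which overlap. Orc1, Mcm6 and Gins3, lower in KO at L2C, thus each held an E2F word, as did Pold3, which was higher. Gins3 and Pold3 held the same word (TTTCCCGC), while Orc1 held TTTCGCGC and Mcm6 held TTTCGCGC and TTTGGCGC.

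The comparison of KO with WT zygotes asked the same before the main onset of embryonic transcription. None of the 45 members was called at PN3, beside 0.132% of all genes tested (0.0898% higher and 0.0425% lower). One member, Pole, had an unadjusted p under 0.05, and 0 were called by DESeq2 (2.54% of all genes) or with the replicate block (2.67% of all genes). Pole had 7.83, 7.35 and 6.43 CPM in KO PN3, against 3.53, 5.87 and 4.02 CPM in WT PN3. All KO libraries were higher, by 0.69 on the log2 scale (SE 0.26, edgeR adjusted p = 0.399). Median log2 fold changes were 0.015 for licensing, 0.043 for firing and 0.18 for fork genes, against 0 for all genes tested. In 3 members all KO libraries lay above all WT libraries (Mcm10, Pold2 and Pole) and in 2 below (Orc2 and Rpa1), while 5.9% and 6.96% of all genes tested did so. Intervals were narrow for some members, such as Rfc1 (-0.32 to 0.43) and Mcm2 (-0.44 to 0.47), and wide for others, such as Orc5 (-1.11 to 1.07) and Pole2 (-1.17 to 1.83). Without the 4 libraries rich in rRNA 5 members were called, Pola1, Prim2, Pole and Rfc4 higher and Gins4 lower in KO, where 9.36% of all genes were called.

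For genes called at L2C the zygotes overlapped in most cases. Orc1 had 64.8, 44.8 and 67.9 CPM in KO PN3, against 61.7, 37.1 and 50.5 CPM in WT PN3. Gins1 had 27.8, 16.0 and 27.7 CPM in KO PN3, against 32.4, 21.5 and 35.5 CPM in WT PN3, and Gins3 had 24.7, 25 and 26.9 CPM in KO PN3, against 20.2, 23.6 and 28.2 CPM in WT PN3. All 3 overlapped between the genotypes. Cdc45 had 158, 92.1 and 162 CPM in KO PN3, against 144, 77.1 and 150.1 CPM in WT PN3, with replicate 2 the lowest in each group. Mcm10 had 186, 224 and 184 CPM in KO PN3, against 159.7, 172 and 149 CPM in WT PN3. Its KO libraries lay above its WT libraries, the opposite of L2C, with an edgeR adjusted p of 0.61. Pold3 had 235, 224 and 219.8 CPM in KO PN3, against 223, 254 and 272 CPM in WT PN3, again with overlap. The zygote values of Mcm6 were 89.5, 63.8 and 72.1 CPM in KO PN3 and 76.4, 69.0 and 66.8 CPM in WT PN3, those of Orc2 44.3, 38.6 and 36.1 CPM in KO PN3 and 59.99, 52.8 and 47.2 CPM in WT PN3, and those of Pole3 183, 218 and 183 CPM in KO PN3 and 183, 157 and 153 CPM in WT PN3. Orc2 was lower in all KO libraries at both stages, but at PN3 its edgeR adjusted p was 0.505.

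Whether the KO difference itself depended on the stage was tested as the difference of log2 fold changes, L2C minus PN3. Of the 45 members 7 were called, 6 with a more negative and 1 with a more positive effect at L2C, beside 4.94% of all genes tested (1.85% positive and 3.09% negative). Negative were 1 of 15 licensing genes (Orc1), 4 of 8 firing genes (Mcm10, Cdc45, Gins1 and Gins3) and 1 of 22 fork genes (Pole), and Pold3 was positive. The differences of effects on the log2 scale were -2.11 (SE 0.34, edgeR adjusted p = 0.00655) for Orc1, -2.07 (0.37, 0.0105) for Pole, -1.86 (0.32, 0.00867) for Gins3 and -1.68 (0.25, 0.00525) for Mcm10. These 4 were called in all 12 fits that left out 1 library. Gins1 (-1.83, edgeR adjusted p = 0.0218), Cdc45 (-1.66, 0.0451) and Pold3 (0.95, 0.0359) were called in 4, 1 and 3 of those 12 fits. Gins1 kept its call without KO L2C replicate 3, KO PN3 replicate 2 or WT PN3 replicate 2 or 3, Cdc45 without KO PN3 replicate 2, and Pold3 without KO L2C replicate 3, KO PN3 replicate 2 or WT PN3 replicate 2. Leaving out any of the other libraries gave adjusted p of up to 0.091, 0.1485 and 0.0958. Mcm6 and Pole3, called at L2C, had differences of -0.96 and -1.02 (edgeR adjusted p = 0.0542 and 0.0512), and Orc2 of -0.23 (0.715). Medians were -0.23 for licensing, -1.32 for firing and -0.39 for fork genes, against 0.086 for all genes. The count was 18 (2 positive, 16 negative) with the replicate block (17.8% of all genes), 25 (5 and 20) without the 4 libraries rich in rRNA (27.9%) and 11 (2 and 9) by DESeq2 (13%). With replicates 1 and 2 of each L2C group summed it was 0, as for all genes. The split of 1 positive and 6 negative became 2 and 5 with upper quartile scaling and 0 and 8 with DESeq2's size factors.

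The comparison of L2C with PN3 embryos followed the members through the first cleavage. In WT embryos the catalytic subunit Pole, the primase Prim1 and the RPA subunit Rpa2 rose most, while Rfc3, Rpa1 and Rpa3 fell most. Of 45 members 27 were called, 7 higher and 20 lower at L2C, beside 61.6% of all genes tested (36.2% higher and 25.4% lower). All libraries lay higher at L2C in 9 members and lower in 22, against 40.8% and 29.5% of all genes. Licensing genes split into 2 higher and 6 lower of 15, firing genes into 1 and 3 of 8, and fork genes into 4 and 11 of 22. Median log2 fold changes were -0.76 for licensing, 0.09 for firing and -0.57 for fork genes, against 0.38 for all genes tested. The small median of the firing genes had no fixed sign: it was -0.15 without WT PN3 replicate 2 and 0.35 with DESeq2's size factors.

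Among the fork genes Pole had 30.2, 32.2 and 32.1 CPM in WT L2C, against 3.53, 5.87 and 4.02 CPM in WT PN3 (log2 fold change 2.82, SE 0.28, edgeR adjusted p = 2.46e-06). Rpa2 had 211, 224 and 169 CPM in WT L2C, against 26.7, 44 and 27.4 CPM in WT PN3 (2.62, SE 0.33, edgeR adjusted p = 1.97e-05). Prim1 had 62.7, 63.1 and 44 CPM in WT L2C, against 9.97, 6.93 and 14.0 CPM in WT PN3 (2.45, SE 0.37, edgeR adjusted p = 9.11e-05). None of these 3 overlapped between the stages. Rfc3, a subunit of the clamp loader, had 10.2, 8.19 and 2.69 CPM in WT L2C, against 89.0, 55.0 and 98.7 CPM in WT PN3 (-3.53, SE 0.46, edgeR adjusted p = 2.75e-05). Rpa1, the large subunit of RPA, had 13.5, 12.3 and 17.2 CPM in WT L2C, against 126, 107 and 106 CPM in WT PN3 (-2.98, SE 0.21, edgeR adjusted p = 2.12e-07). Rpa3, its smallest subunit, had 42.3, 47.8 and 34.2 CPM in WT L2C, against 231, 164 and 278 CPM in WT PN3 (-2.44, SE 0.33, edgeR adjusted p = 4.18e-05). Subunits of RPA moved in opposite directions in WT, Rpa2 higher and Rpa1 and Rpa3 lower at L2C. The same was true of polymerase epsilon, with Pole higher and Pole3 (-0.63) and Pole4 (-0.72) lower, and of RFC, with Rfc4 higher (1.55) and Rfc1 (-1.003), Rfc3 and Rfc5 (-0.52) lower. With DESeq2's size factors Pole3 and Pole4 kept their sign at -0.37 and -0.46 but were not called (edgeR adjusted p = 0.096 and 0.0832), and neither was called by DESeq2 (0.0549 and 0.0684). Rfc5, Cdt1 and Gins2 also lost their calls in both of those fits. Rfc4 had 20.2, 17.0 and 8.42 CPM in WT L2C, against 7.38, 1.37 and 6.78 CPM in WT PN3, and lost its call without WT L2C replicate 1 or 2 or WT PN3 replicate 2 or 3 (highest edgeR adjusted p = 0.1485). Rfc5 lost its call without any of the WT L2C libraries or WT PN3 replicate 1 (0.1487). Genes on the opposite strand overlap 12.7% of the exon bases of Rfc4 and 10.7% of those of Rfc5.

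Among the licensing genes Orc2 (0.85) and Mcm6 (0.88) rose in WT, and Orc3 (-1.80), Orc5 (-1.97), Cdt1 (-0.82), Mcm2 (-1.47), Mcm4 (-2.42) and Mcm5 (-1.10) fell. Within the helicase ring Mcm6 thus went against Mcm2, Mcm4 and Mcm5. Among the firing genes Cdc45 rose (0.86) and Mcm10 (-1.70), Cdc7 (-1.33) and Gins2 (-0.84) fell, while Gins1 (0.17) and Gins3 (0.51) were not called. The calls of Cdc45 and Cdt1 were lost without WT L2C replicate 1 or 2 or WT PN3 replicate 2 (highest edgeR adjusted p = 0.1402 and 0.0892), and that of Gins2 without WT L2C replicate 1 or 2 or WT PN3 replicate 1 or 3 (0.0889).

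In KO embryos 35 of 45 members were called between the stages, 5 higher and 30 lower at L2C, beside 53.6% of all genes tested (33.5% higher and 20.1% lower). All libraries lay higher at L2C in 6 members and lower in 27, against 36.8% and 23% of all genes. Medians were -1.01 for licensing, -1.07 for firing and -0.87 for fork genes, against 0.41 for all genes. Licensing genes split into 1 higher and 11 lower of 15, firing genes into 1 and 5 of 8 and fork genes into 3 and 14 of 22. Orc1 fell by 1.96 in KO (edgeR adjusted p = 2.93e-05), Gins1 by 1.66 (0.000336) and Gins3 by 1.35 (0.000295), 3 genes with log2 fold changes of 0.15, 0.17 and 0.51 in WT. Mcm10 fell by 3.38 in KO and by 1.70 in WT, and Cdc45 fell by 0.79 in KO where it rose by 0.86 in WT. Pole rose by 0.75 in KO and by 2.82 in WT. For Orc1, Gins1, Gins3, Mcm10, Cdc45 and Pole these pairs of values are the ones whose difference was tested above, and the comparisons share their libraries, so they are no separate evidence. Mcm2 fell by 1.47 in KO and by 1.47 in WT, and Rfc3 fell by 3.06 in KO and by 3.53 in WT, with no call on the difference (edgeR adjusted p = 1 and 0.716). With replicates 1 and 2 of each L2C group summed 23 members were called in KO, 2 higher and 21 lower, beside 41.3% of all genes (14.7% lower). The call of Cdc45 in KO held only without KO PN3 replicate 2 (highest edgeR adjusted p of the 6 fits 0.1441), and that of Pole was lost without KO L2C replicate 1 or 2 or KO PN3 replicate 3 (0.0828). Pold3 was called in 0 of those 6 fits (0.1315). Dbf4, Pole2 and Pcna were each called in 1 of the 6 (0.165, 0.0732 and 0.1364) and Gmnn in 2 (0.1184). Orc2, Mcm5 and Pola2 were each called in 3 (0.0745, 0.0868 and 0.1147). The other calls in KO held in all 6.

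**Figure D5:**
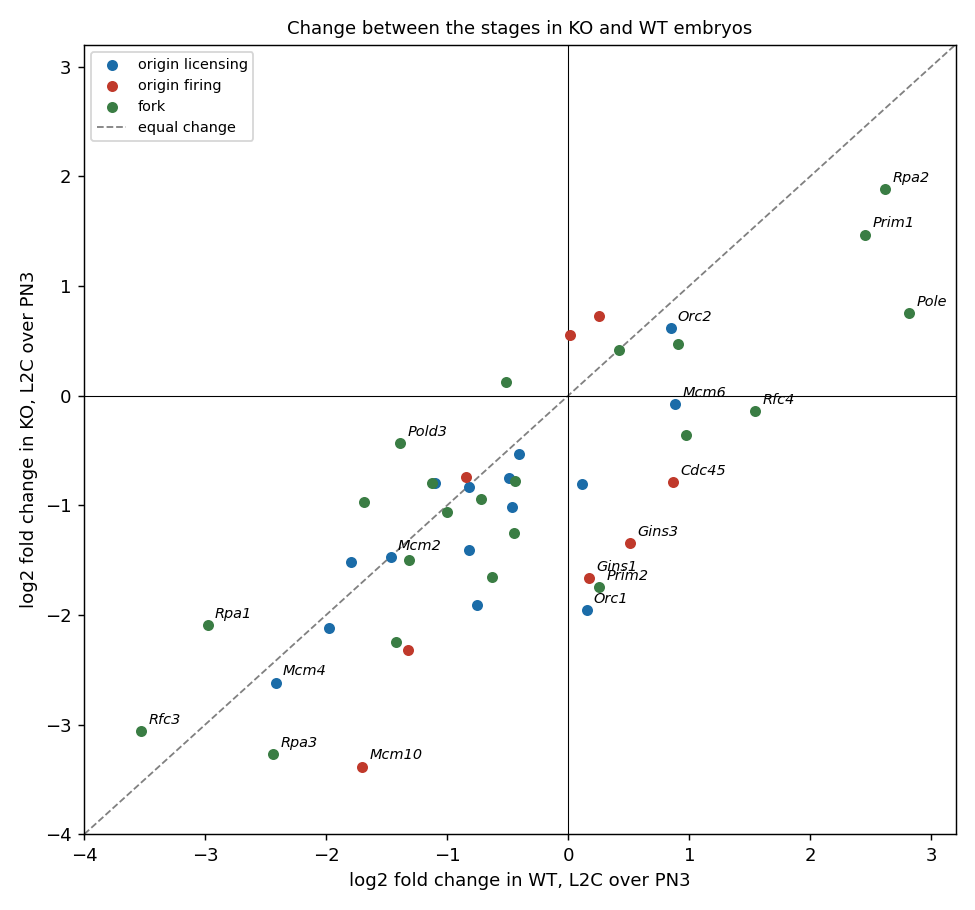
Log2 fold change of L2C over PN3 in KO (vertical axis) against that in WT (horizontal axis) for the 45 genes, coloured by role, with the dashed line marking equal change. Orc1, Gins1, Gins3, Cdc45, Mcm10 and Pole lie below the line, with Pole at 0.75 in KO and 2.82 in WT, and Pold3 lies above it.

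Other genes of DNA replication outside the 45 were taken from 5 lists: initiation, S phase entry with Cdt1 turnover, fork protection with further replisome factors, deoxynucleotide supply and chromatin assembly behind the fork. Of 61 such genes 60 were tested. At L2C 0 were higher and 8 lower in KO (13.3%, with a median log2 fold change of -0.25 over the 60), and at PN3 0 were called by edgeR and 1 had an unadjusted p under 0.05. By list the lower genes at L2C were 1 of 9 for initiation, 2 of 16 for S phase entry, 2 of 15 for fork protection, 1 of 10 for deoxynucleotide supply and 2 of 10 for chromatin assembly. Ticrr, which helps to bring CDC45 and GINS to origins, had 73.1, 75.7 and 71.7 CPM in KO L2C, against 130.3, 144 and 169 CPM in WT L2C (-1.01, edgeR adjusted p = 0.015). Cdk2, a kinase of S phase entry, had 29.7, 27.5 and 28.3 CPM in KO L2C, against 69.2, 65.5 and 54.5 CPM in WT L2C (-1.15, edgeR adjusted p = 0.00417). Dtl, a substrate receptor for CDT1 turnover, had 48.0, 52.4 and 43.8 CPM in KO L2C, against 74.9, 86.0 and 65.1 CPM in WT L2C (edgeR adjusted p = 0.0408). All 3 were without overlap between the genotypes. Atad5, which unloads PCNA, averaged 23.5 ± 4.26 CPM in KO L2C and 40.9 ± 3.49 CPM in WT L2C, and Top2a, a topoisomerase, 92.5 ± 10.9 CPM in KO L2C and 142 ± 17.8 CPM in WT L2C (SD, n = 3; edgeR adjusted p = 0.0418 and 0.0437). Rrm1, the large subunit of ribonucleotide reductase, averaged 20.3 ± 5.69 CPM in KO L2C and 42.7 ± 8.89 CPM in WT L2C (edgeR adjusted p = 0.037). Nasp, a histone chaperone, averaged 201 ± 13.8 CPM in KO L2C and 331 ± 51.5 CPM in WT L2C, and Chaf1a, the large subunit of chromatin assembly factor 1, 16.4 ± 2.96 CPM in KO L2C and 26.4 ± 0.763 CPM in WT L2C (edgeR adjusted p = 0.0188 and 0.0454). The share of these genes called lower was thus near the 9.74% of all genes, and no test was made between the lists.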

How the data were processed

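The authors deposited raw counts per gene with featureCounts' header, and these whole-number counts were used as deposited. The submitters' processing notes name Trim Galore 0.6.7, STAR 2.7.10a, featureCounts 2.0.2, DESeq2 and the mm10 build. Neither header nor notes give settings for strand or multi-mapped reads, so reads of overlapping genes cannot be told apart. No spike-in is named in the labels, so levels are relative within a library. Reads were paired, from Smart-seq2 libraries primed with oligo(dT), per the labels' protocols.

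Counts were tested with edgeR 4.0.16 (R 4.3.3, limma 3.58.1), in a robust quasi-likelihood fit with TMM scaling and 1 mean per group over all 12 libraries. The filterByExpr step left out 34131 of 55291 genes, and Benjamini-Hochberg adjustment ran over the other 21160, with a threshold of 0.05. SEs are derived from the F statistic. CPM are counts per 1e+06 of the TMM-scaled library, and CPM per kb divides their group mean by the length of merged exons. Tables and figures were made with Python 3.11.15, pandas 2.3.3 and matplotlib 3.10.9. The fit was tested on simulated data for KO against WT at L2C, with 200 changed genes. It recovered 0% of 2-fold changes, with 0 false calls, and 67.5% of 4-fold changes, with 5 false calls. All other genes were simulated without a difference at L2C, whereas 17% of all genes tested were called there in the data. Adjustment is stricter when few genes change, so these shares do not carry over to the data. There Mcm6 was called at a log2 fold change of -0.87, and Orc4 at -1.11 was not. The lack of a call does not show that a member was unchanged, and differences near 2-fold can be missed. The rRNA annotation came from GENCODE M21, exon overlaps from the exon coordinates deposited with the counts, and promoter windows from RefSeq (GRCm38.p6). A search of protein sequences was planned, but no protein table was used here.

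Genes named in full were those called at either stage or in the difference of effects, the 3 highest and 3 lowest between the stages in WT, the member with the highest adjusted p at L2C in each role, and up to 3 called genes of each other list; further members are given as values. The members and lists were chosen with earlier results of these data known. Same-numbered KO and WT libraries of a stage had positively correlated deviations (0.165, 0.455 and 0.274 at PN3 and 0.128, 0.15 and 0.221 at L2C for replicates 1, 2 and 3), so the replicate block was run as a paired fit, on the data and not on a label. Differently numbered libraries reached similar values (PN3 replicates 1 and 3, 0.205 and 0.211, L2C replicates 1 and 2, 0.14 and 0.132), so apart from the libraries rich in rRNA the numbers did not single out pairs. Alternatives were other scalings (DESeq2's size factors, upper quartile), DESeq2 1.42.0, no filter or at least 5 CPM in 3 libraries, fits of only the groups compared, the replicate block, summing the close L2C libraries, and leaving out the libraries rich in rRNA or each library in turn.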

Additional observations from a re-analysis of the deposited data

Results flagged for a closer look

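Results for 9 genes are listed because the KO effect differed between the stages in the test of the difference itself. The log2 fold change of KO over WT at L2C minus the one at PN3 was -2.11 for Orc1, -1.68 for Mcm10, -1.66 for Cdc45, -1.83 for Gins1, -1.86 for Gins3 and -2.07 for Pole, so that these were lower in KO 2-cell embryos relative to the zygotes. It was 0.95 for Pold3 and, among the replication genes outside the 45, 1.16 for Chaf1b (edgeR adjusted p = 0.0495). For Pan2 itself it was 3.86 (edgeR adjusted p = 0.00615), with log2 fold changes of -1.50 at L2C and -5.36 at PN3. Counts do not separate maternal from paternal copies, and what part each had at L2C was not tested. With replicates 1 and 2 of each L2C group summed, none of the 45 was called in this test.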

How the results depend on the processing

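Every alternative was applied to the 5 comparisons, except that a fit of only the groups compared has no value for the difference of effects. At PN3, 5 members were called without the 4 libraries rich in rRNA and 0 elsewhere. At L2C the count was 23 with the replicate block, 27 without the libraries rich in rRNA, 4 with the close L2C libraries summed and 7 to 16 when 1 library was left out. For the difference of effects it was 11 by DESeq2, 18 with the block, 25 without the libraries rich in rRNA, 0 with the libraries summed and 4 to 9 when 1 library was left out. Between the stages in KO it was 23 with the libraries summed, where 41.3% of all genes were called. The block changed no call at PN3 and gave 39 members between the stages in KO and 33 in WT, where 62.3% and 69.3% of all genes were called.

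The firing median at L2C was -1.12 with DESeq2's size factors and in DESeq2, -0.83 with upper quartile scaling, -0.91 at 5 CPM or more, -0.94 with only the groups compared, -1.18 without the libraries rich in rRNA, -0.95 with libraries summed and -1.14 to -0.92 when 1 library was left out. With upper quartile scaling the licensing median at L2C was -0.14 and the fork median -0.13, and the median of all genes moved from 0.016 to 0.226. When 1 library was left out they were -0.43 to -0.24 and -0.31 to -0.12, and the fork median was -0.22 at 5 CPM or more and -0.20 without the libraries rich in rRNA. Between the stages in WT the firing median was 0.35 with DESeq2's size factors and in DESeq2, -0.16 without the libraries rich in rRNA and -0.15 to 0.13 when 1 library was left out. The fork median there was -0.32 with both DESeq2 settings and -0.84 to -0.58 when 1 library was left out. In KO the licensing median was -1.31 (-1.315 unrounded) without the libraries rich in rRNA. For the difference of effects the fork median was -0.15 with upper quartile scaling and at 5 CPM or more, and -0.43 to -0.21 when 1 library was left out.

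Without the libraries rich in rRNA, Dbf4 in WT was lower at L2C (-0.27, edgeR adjusted p = 0.0163) and Fen1 in KO higher (1.37, 0.0407), each opposite in sign to its value over all libraries. Between the stages in WT, that fit also called Orc4, Orc6, Mcm3, Mcm7, Pola1, Pole2 and Pcna lower and Rfc2 higher at L2C. In KO it also called Orc6, Mcm7, Gins2 and Rfc4 lower and Gins4 higher at L2C. Of all genes 73.5% were called in WT and 66.9% in KO. The cause of these changes was not tested. Leaving out libraries also takes away samples.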

Other observations

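Between the stages the replication genes outside the 45 moved in both directions. Of 60 tested, 12 were higher and 18 lower at L2C in KO, and 14 were higher and 19 lower in WT. Of all genes tested 33.5% were higher and 20.1% lower in KO, and 36.2% and 25.4% in WT. The genes named here were chosen after their values were seen. Ccne1, the cyclin E that drives S phase entry, had a log2 fold change of 4.65 in KO and 5.502 in WT, and Dck, a kinase of the nucleoside salvage pathway, 3.16 in KO and 3.23 in WT. Rnaseh2a, which removes ribonucleotides from DNA, had 2.18 in KO and 3.35 in WT. The maintenance methyltransferase Dnmt1 fell by 4.08 in KO and by 3.89 in WT, its partner Uhrf1 fell by 2.68 in KO and fell by 3.30 in WT, and the fork protection gene Timeless fell by 3.29 in KO and fell by 3.55 in WT. Cdc25a, a phosphatase that activates cyclin-dependent kinases, fell by 2.14 in KO and by 2.39 in WT, and Mtbp, a partner of Ticrr, by 2.11 in KO and by 1.71 in WT. All of these passed the threshold in edgeR's quasi-likelihood test in both genotypes.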
